A study of Mus musculus with 4 samples.

Results

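Notch signalling was followed through 8 genes in whole gonads of wild-type male mouse embryos: the ligands Dll4 and Jag1, the receptors Notch1, Notch2 and Notch3, and the target genes Hes1, Hey1 and Heyl. They were found by matching the RefSeq accession of each array probe to a gene symbol, and 10 of the 41174 probes belonged to them, 1 for each gene except Jag1 and Heyl, which had 2 probes. All 8 genes entered the tests, among 21986 genes in all. Of these 13475 had a gene symbol, and the others were counted under the array's own name for the probe target. Some of those may belong to the same gene, so a share of all genes below is a share of these 21986 entries.

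The embryos were of the MCH mouse line, and the labels give no allele or treatment, so the groups differ in them by age alone. Gonads came from 4 ages a day apart, the first at embryonic day 12.5 (E12.5) and the last at E15.5, the days after the testis is set apart from the ovary, when cords of Sertoli and germ cells form and fetal Leydig cells appear between them. Each stage had 2 one-colour Agilent arrays, described in the series text as biological duplicates, and how many embryos gave RNA to an array is not given in the sources used here. A level is log2 of the spot intensity minus the log2 of that array's 75th percentile, so that 0 is the 75th percentile, and levels of different probes are not comparable with each other.

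Notch receptors are cell surface proteins that are switched on by ligands of the Delta and Jagged families on a neighbouring cell. Enzymes then cut the receptor, and its inner part enters the nucleus, joins the DNA-binding protein RBPJ and turns on repressor genes of the Hes and Hey families. In the fetal mouse testis Notch activity is known to hold interstitial progenitors back from becoming Leydig cells, and in blood vessels Dll4 marks arterial and sprouting endothelium whereas Notch3 and Heyl are typical of the mural cells around vessels.

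The 8 arrays lay on 3 slides. Slide 1 held the first array of E12.5 and of E13.5, slide 2 held the second array of each, and slide 3 held all E14.5 and E15.5 arrays. The steps from E12.5 to E13.5 and from E14.5 to E15.5 were therefore made within slides, whereas slide and stage cannot be told apart in the middle step, E14.5 against E13.5, or over the whole span from E12.5 to E15.5. Between 60.3% and 69.8% of the probes were well above background on an array, and the 75th percentile of the signal was between 802.1 and 1784 intensity units. Of 25 fixed markers of Leydig, Sertoli and germ cells, 23 were above background on all 8 arrays. Of the 8 genes, 7 were above background on every array and none was saturated. The exception was Notch2, which was above background on 7 of 8.

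Dll4 fell and Jag1 rose between E12.5 and E15.5, and none of the other 6 genes passed the test (limma, adjusted p under 0.05 over all 21986 genes). The mean level of Dll4 was 3.26-fold lower at E15.5 than at E12.5, and that of Jag1 was 1.93-fold higher. These 2 calls out of 8 stand beside 35% of all genes called over the same span, 17.6% higher and 17.4% lower, so the share of the Notch genes called was no larger than that of the array as a whole. The median difference over the 8 genes was -0.40 on the log2 scale, against -0.07 over all genes tested. In bulk RNA, fewer cells of a type and less RNA per cell cannot be told apart.

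**Figure D1:**
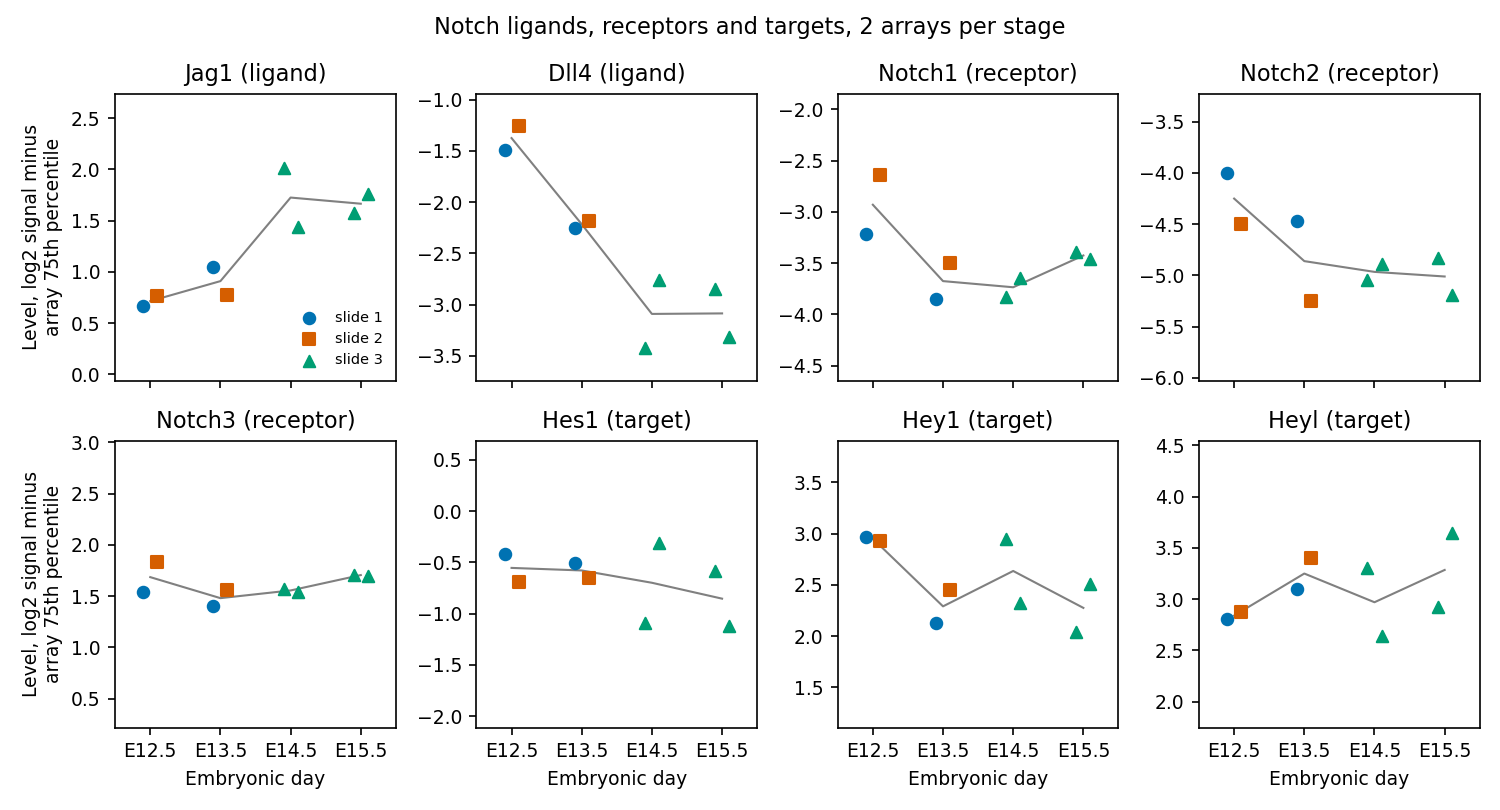
Levels of the 8 Notch genes on each array (log2 intensity minus the array's 75th percentile) against embryonic day, with each array as a point whose shape and colour give its slide, and stage means joined by a line. Dll4 stepped down from -1.38 at E12.5 to -3.08 at E15.5 and Jag1 went from 0.71 to 1.66, whereas Notch3 stayed between 1.4 and 1.83 on all 8 arrays.

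Promoter sequences are shown for both ligands, the only genes of the 8 that passed the test, and for Hey2, a further target of the pathway. Hey2 was called higher over the same span, which compares arrays of different slides. It serves as a contrast because its promoter holds the searched RBPJ motif, so its difference from the ligands in that motif was fixed by the choice. Each sequence is 300 bases long, from 250 bases before the gene's start to 50 after it, from RefSeq on GRCm38.p6, and is written 5′ to 3′ along the gene. Matches are in capitals, to the RBPJ core TGGGAA or to the N box CACNAG that Hes proteins bind, searched on both strands. The window of Dll4 is chr2:119325534-119325833 on the plus strand, that of Jag1 is chr2:137116471-137116770 on the minus strand, and that of Hey2 is chr10:30842734-30843033 on the minus strand.
Dll4: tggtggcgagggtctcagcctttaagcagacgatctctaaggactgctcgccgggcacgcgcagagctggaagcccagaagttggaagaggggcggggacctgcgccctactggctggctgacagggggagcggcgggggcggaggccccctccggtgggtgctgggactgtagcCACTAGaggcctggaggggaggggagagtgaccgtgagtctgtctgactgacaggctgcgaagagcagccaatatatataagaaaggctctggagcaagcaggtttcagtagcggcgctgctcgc
Jag1: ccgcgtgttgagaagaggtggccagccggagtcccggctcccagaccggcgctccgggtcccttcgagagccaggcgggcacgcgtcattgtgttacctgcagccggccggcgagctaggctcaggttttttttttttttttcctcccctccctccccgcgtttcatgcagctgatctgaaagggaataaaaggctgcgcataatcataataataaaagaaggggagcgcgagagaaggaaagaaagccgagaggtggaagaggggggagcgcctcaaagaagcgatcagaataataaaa
Hey2: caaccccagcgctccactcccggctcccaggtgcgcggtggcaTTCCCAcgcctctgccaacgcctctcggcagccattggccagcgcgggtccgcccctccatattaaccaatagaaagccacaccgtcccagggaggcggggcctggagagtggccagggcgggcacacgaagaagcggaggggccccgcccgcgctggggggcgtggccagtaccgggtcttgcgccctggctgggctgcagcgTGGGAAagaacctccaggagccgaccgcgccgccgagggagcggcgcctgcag
The Dll4 window held 1 N box match and no RBPJ core, the Jag1 window held neither, and the Hey2 window held 2 RBPJ cores, 1 on each strand. The RBPJ core was found in 25.6% of 32851 mouse promoters of this length and the N box in 42.5%, so both are common by their letters alone. CG dinucleotides numbered 17 in the Dll4 window, 22 in that of Jag1 and 29 in that of Hey2, against a median of 7 over all promoters. The windows of Notch1, Notch2 and Notch3 held no RBPJ core and 3, 1 and 2 N box matches. For Notch1, 2 of the matches overlap, 1 on each strand, within 1 palindromic stretch. A match describes the letters and not a bound site. Hes1, Hey1 and Heyl had no entry.

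Dll4, a Delta-type ligand that guides arterial fate and vessel sprouting, lies on chromosome 2 (119325784 to 119335666, GRCm38.p6). Its level was -1.49 and -1.26 at E12.5, -2.25 and -2.18 at E13.5, -3.42 and -2.76 at E14.5, and -2.85 and -3.32 at E15.5. Both E12.5 arrays were the highest of the 8, both E13.5 arrays came next, and the arrays of the last pair of stages lay below them and overlapped each other. From E12.5 to E15.5 the level fell by 1.71 ± 0.28 (SE) on the log2 scale, with a 95% interval of -2.39 to -1.03 and an adjusted p of 0.00551 (limma, 2 arrays a stage). The first step was -0.84 ± 0.28, from -1.38 ± 0.17 (SD, n = 2) to -2.21 ± 0.04, and it did not pass over all genes (adjusted p = 0.192, unadjusted p = 0.0231). Within slide 1 that difference was -0.75 and within slide 2 it was -0.92. The middle step, to E14.5 and across slides, was -0.88 (adjusted p = 0.0902). The last step was 0.01 with an interval of -0.67 to 0.69. Adding the 2 steps made within slides, a sum chosen after the data were seen, gave -0.83 ± 0.40 for Dll4 (interval -1.79 to 0.13, adjusted p = 0.437). Such a sum, here and for the genes below, leaves out the day from E13.5 to E14.5. It is not the whole span freed of slides, and a change on that day cannot appear in it. The call over the whole span rests on arrays of different slides.

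Jag1, a Jagged-type ligand found in vessel walls and in many developing organs, lies on chromosome 2 (137081451 to 137116520). Its level was 0.67 and 0.76 at E12.5, 1.05 and 0.77 at E13.5, 2.01 and 1.44 at E14.5, and 1.57 and 1.76 at E15.5. The 4 arrays of E14.5 and E15.5 were all above the 4 of E12.5 and E13.5. From E12.5 to E15.5 the level rose by 0.95 ± 0.24 on the log2 scale (95% interval 0.37 to 1.53, adjusted p = 0.025). Most of this difference lay in the step that crosses slides, from 0.91 ± 0.20 (SD, n = 2) at E13.5 to 1.72 ± 0.40 at E14.5, a difference of 0.81 ± 0.24 that did not pass over all genes (adjusted p = 0.0749). The steps within slides were 0.20 (interval -0.39 to 0.78) and -0.06 (interval -0.64 to 0.52), and their sum was 0.14 (interval -0.69 to 0.96, adjusted p = 0.93). The call was lost, with an adjusted p of 0.0702 to 0.134, when any 1 of the E12.5 or E15.5 arrays was left out, the difference being between 0.85 and 1.05. The dimmer second probe of Jag1 was not well above background on 1 E12.5 array, and its difference over the span was 1.25.

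The authors' deposited table, which gives 1 linear ratio per probe and stage and has no separate arrays, put Dll4 at 1.96, 1.01, 0.567 and 0.48 from E12.5 to E15.5. It put Jag1 at 0.713, 0.75, 1.36 and 1.1. There too Dll4 was lower and Jag1 higher at E15.5 than at E12.5, although the table's median over all genes was itself lower by 0.39 on the log2 scale at E15.5 than at E12.5.

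No receptor passed the test in any comparison. Notch1, the receptor that endothelial cells and many progenitors carry (chromosome 2, 26457902 to 26503822), had levels of -3.22 and -2.64 at E12.5, -3.85 and -3.50 at E13.5, -3.83 and -3.64 at E14.5, and -3.39 and -3.46 at E15.5. Both E12.5 arrays were above the other 6. The first step was -0.74 ± 0.25 on the log2 scale (interval -1.35 to -0.14, adjusted p = 0.191), and it was -0.63 within slide 1 and -0.86 within slide 2. On slide 3 both E15.5 arrays were above both E14.5 arrays, by 0.17 to 0.44 over the pairs of arrays.

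Notch2, a widely expressed receptor (chromosome 3, 98013538 to 98150367), was close to the detection limit, with intensities of 23.6 to 65.6. Its level was -4.00 and -4.50 at E12.5, -4.47 and -5.25 at E13.5, -5.04 and -4.89 at E14.5, and -4.83 and -5.19 at E15.5. The E12.5 arrays were above those of E14.5 and E15.5 and overlapped those of E13.5. The difference over the span was -0.76 ± 0.32 (interval -1.53 to 0.01, adjusted p = 0.111), and it passed with an adjusted p of 0.0303 after quantile scaling and 0.00849 after another background correction.

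Notch3, the receptor of pericytes and smooth muscle (chromosome 17, 32120820 to 32166896), had levels of 1.54 and 1.83 at E12.5, 1.4 and 1.56 at E13.5, 1.57 and 1.54 at E14.5, and 1.71 and 1.70 at E15.5. All 8 arrays lay within a narrow band, whose lowest value was on an E13.5 array and whose highest was on an E12.5 array. The difference between E15.5 and E12.5 was 0.02 with an interval of -0.42 to 0.46, so a change of the size seen in Dll4 or Jag1 lies outside the interval. That interval measures the spread between duplicates and not a difference between slides, which could hide a change in this comparison. The sum of both steps within slides was -0.05 (interval -0.67 to 0.57). Both E15.5 arrays were above both E14.5 arrays, by 0.13 to 0.17 (adjusted p = 0.995).

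The 3 target genes also passed no test. Hes1, a repressor that answers to Notch and to other signals (chromosome 16, 30065357 to 30067796), had levels of -0.42 and -0.69 at E12.5, -0.51 and -0.65 at E13.5, -1.09 and -0.31 at E14.5, and -0.59 and -1.12 at E15.5. The 2 earlier stages overlapped almost fully and the later arrays spread more widely than the stages differed. Its difference over the span was -0.29 (interval -1.05 to 0.46, adjusted p = 0.499).

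Hey1, a Hey repressor of endothelial and other Notch-responding cells (chromosome 3, 8663359 to 8667038), had levels of 2.97 and 2.93 at E12.5, 2.13 and 2.45 at E13.5, 2.95 and 2.32 at E14.5, and 2.04 and 2.51 at E15.5. Both E12.5 arrays were above those of E13.5 and of E15.5, and the E14.5 arrays lay apart and overlapped every other stage. The first step was -0.66 ± 0.28 (interval -1.34 to 0.01, adjusted p = 0.302), with -0.84 within slide 1 and -0.48 within slide 2. Over the whole span the difference was -0.67 ± 0.28 (interval -1.35 to 0.00, adjusted p = 0.108). The sum of both steps within slides was -1.02 ± 0.40 (interval -1.98 to -0.06, adjusted p = 0.322).

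Heyl, the third Hey repressor and a mural cell gene (chromosome 4, 123233556 to 123249870), had levels of 2.81 and 2.87 at E12.5, 3.1 and 3.40 at E13.5, 3.30 and 2.64 at E14.5, and 2.92 and 3.65 at E15.5. Both E13.5 arrays and both E15.5 arrays were above those of E12.5, and the E14.5 arrays overlapped all other stages. The first step was 0.41 (adjusted p = 0.636) and the difference over the span was 0.45 (interval -0.33 to 1.23, adjusted p = 0.319). The second probe gave 0.51 and 0.47 for the same comparisons.

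Duplicates of the 2 later stages also differed from each other. The first E14.5 array and the second E15.5 array gave higher values than their partners for the tested probes of Jag1, Hey1 and Heyl and lower values for Dll4 and Hes1. The second probes of Heyl and Jag1 ran the other way, so the deviation is not shown to belong to those genes. For Heyl the tested probe was at 3.30 against 2.64 at E14.5, first array against second, and the second probe at -0.74 against 0.13. The SD between duplicates of these 5 genes was between 0.14 and 0.55 at E14.5 and E15.5, compared with 0.03 to 0.22 at E12.5 and E13.5. The 3 receptors had the opposite pattern, for example Notch1 with 0.41 at E12.5 and 0.05 at E15.5, and Notch3 with 0.20 and 0.01.

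**Figure D2:**
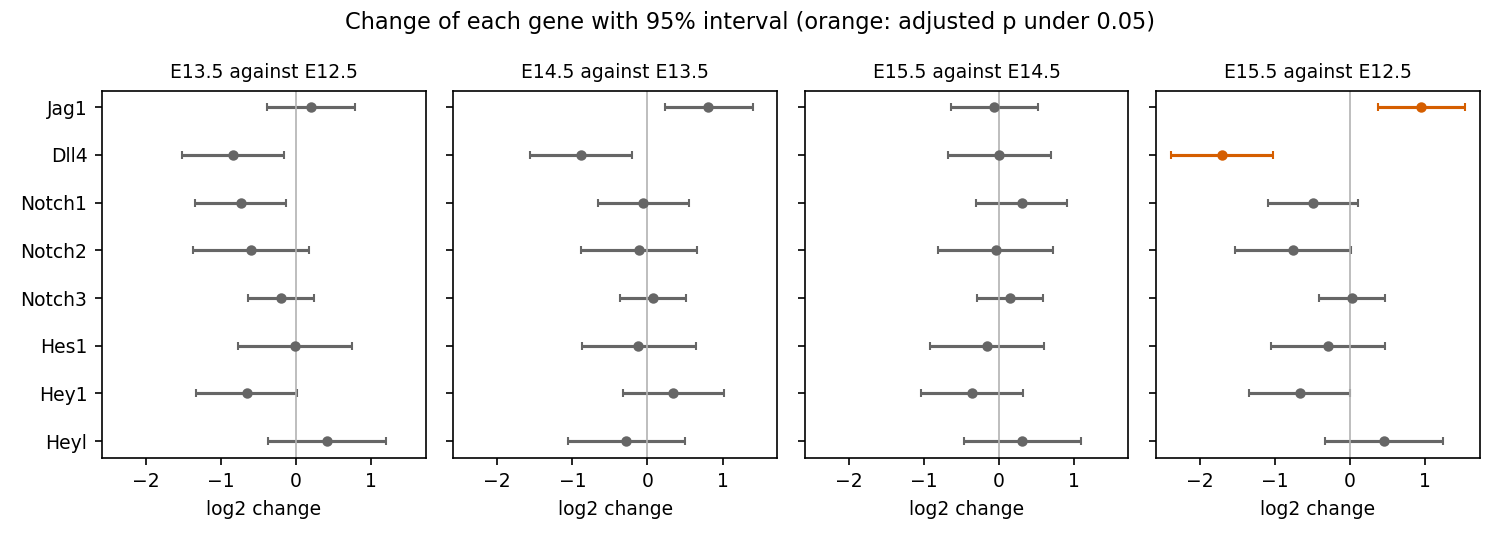
Differences in log2 level of the 8 Notch genes for each comparison of stages, with the estimate as a point and its 95% interval as a line. Only the E15.5 against E12.5 differences of Dll4 (-1.71) and Jag1 (0.95) passed the test over all genes, and the intervals of the step from E14.5 to E15.5 all include 0.

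Step by step, 0 of the 8 genes were called from E12.5 to E13.5 by limma, beside 3.98% of all genes (2.68% higher and 1.3% lower), and 2 of 8 (Notch1 and Dll4) had an unadjusted p under 0.05, beside 17.1%. From E13.5 to E14.5, 0 of 8 were called beside 12.5% of all genes (6.44% higher and 6.04% lower), and Jag1 and Dll4 had an unadjusted p under 0.05, beside 31.9%. From E14.5 to E15.5, 0 of 8 were called beside 0.655% (0.559% higher and 0.0955% lower), and 0 had an unadjusted p under 0.05, beside 9.52%. The arrays of neighbouring stages did not overlap for 5 of 8 genes in the first step, against 51.3% of all genes, for 2 in the middle step, against 60%, and for 2 in the last, against 36.4%. Over the whole span Dll4 and Jag1 had an unadjusted p under 0.05, beside 46.6%, and the arrays of 6 of 8 genes did not overlap, against 74% of all genes. These counts were thus near or below the share over the whole array, apart from the first step, where 5 of 8 exceeds 51.3% by about 1 gene.

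Whether the first and the last step differed was tested by their difference. It was called for 0 of 8 genes, beside 2.34% of all genes, and 1 of 8 had an unadjusted p under 0.05, beside 14.5%. That gene was Notch1, whose last step exceeded its first by 1.05 ± 0.36 (interval 0.20 to 1.90, adjusted p = 0.231). For Dll4 the difference of the steps was 0.85 ± 0.40 (adjusted p = 0.423). Of the sums of the steps within slides, 0 of 8 were called, beside 2.17% of all genes, and Hey1 was the 1 gene with an unadjusted p under 0.05 (0.0398), beside 14.2%.

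The rest of the pathway was described with 5 lists of 65 genes, of which 53 were tested. Over the whole span 22 of the 53 passed (41.5%), 12 higher and 10 lower, beside 35% of all genes, and the median difference was -0.08 on the log2 scale, near that of all genes. From E13.5 to E14.5, 6 rose and 5 fell (20.8%, beside 12.5%). In the steps made within slides, 1 of 53 was called from E12.5 to E13.5 (1.89%, beside 3.98%), and limma called 0 from E14.5 to E15.5, where 6 of 53 had an unadjusted p under 0.05. Most pathway calls therefore came from comparisons in which slide and stage cannot be told apart.

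**Figure D3:**
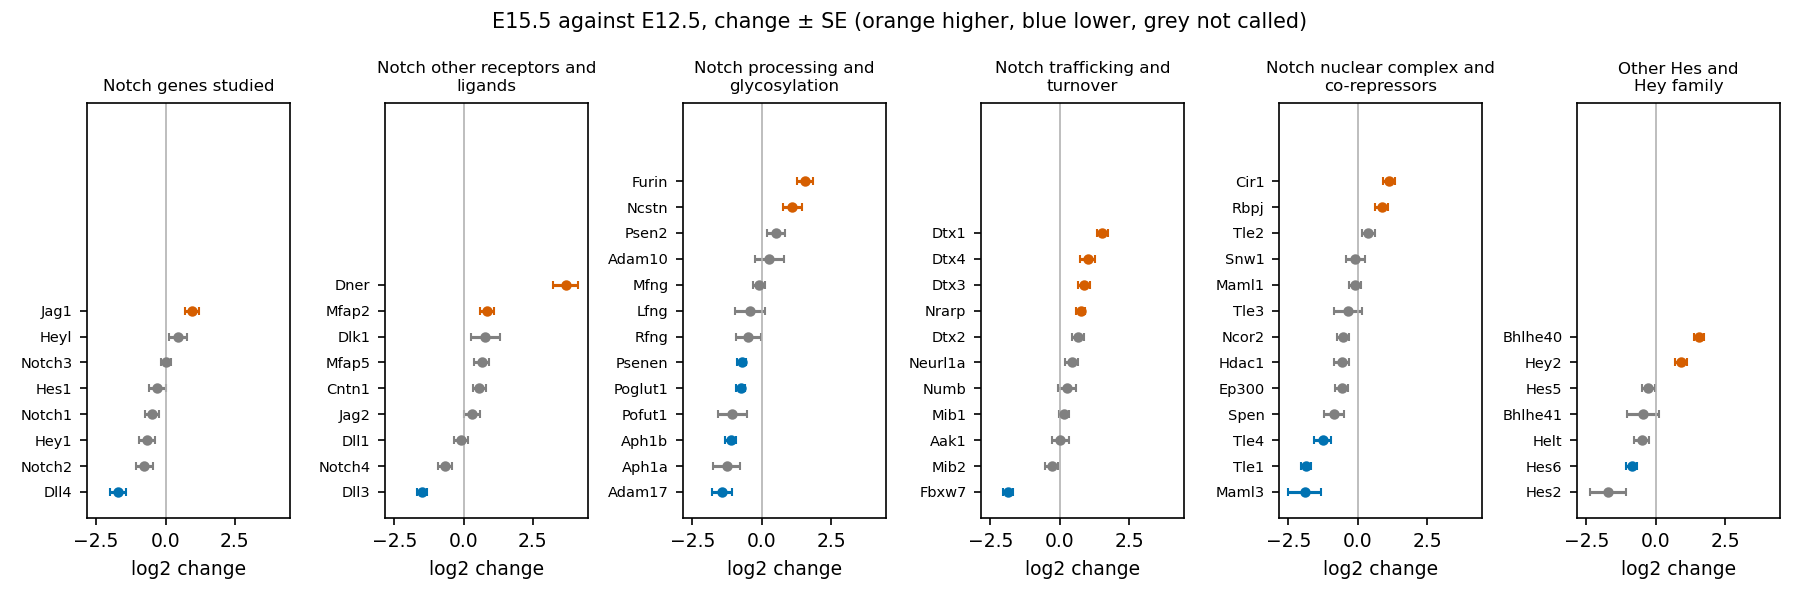
Difference in log2 level between E15.5 and E12.5 for the tested genes of the 5 pathway lists and the 8 Notch genes, grouped by list, with bars for the SE and colour for called genes (orange higher, blue lower, grey not called). Calls lie on both sides of 0 in each of the 5 pathway lists.

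Among 9 other receptors and ligands tested, 2 rose and 1 fell between E12.5 and E15.5. Dner, a transmembrane protein reported as a Notch ligand in the nervous system, was -5.93 and -5.67 at E12.5, not well above background on either array, and -2.62 and -1.62 at E15.5. Both E12.5 values lay above the lowest level above background on their arrays (-6.03 and -5.90), so no separate lower bound could be set. By the measured values Dner ended 12.8-fold higher (adjusted p = 0.00193), an estimate that rests on E12.5 signal not well above background. Dll3, a divergent Delta protein that acts inside the cell and dampens Notch signalling, fell by 1.5 ± 0.17 (adjusted p = 0.00147). Its levels were -0.48 and -0.60 at E12.5 and -2.11 and -1.96 at E15.5, with no overlap. Mfap2, a microfibril protein that binds Notch ligands, rose by 0.83 ± 0.25 (adjusted p = 0.0406). Notch4, the endothelial receptor, differed by -0.67 ± 0.26 (adjusted p = 0.0928), Jag2 by 0.30 (adjusted p = 0.457) and Dll1 by -0.10 (adjusted p = 0.784), none of which passed.

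Among 13 genes of receptor processing and glycosylation tested, 2 rose and 4 fell. Furin, the protease that makes the first cut in the receptor, rose by 1.57 ± 0.30 (adjusted p = 0.00863), and Ncstn, a γ-secretase subunit, rose by 1.11 ± 0.35 (adjusted p = 0.0481). Adam17, a surface protease that can cut Notch, fell by 1.42 ± 0.37 (adjusted p = 0.0274). Aph1b, a further γ-secretase subunit, fell by 1.12 ± 0.19 (adjusted p = 0.00589), but 1 of its 3 probes gave -0.01. The list thus held members of 1 enzyme complex on both sides.

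Trafficking and turnover genes gave 4 higher and 1 lower of 11. Dtx1, a Deltex ubiquitin ligase that acts on Notch, was 0.57 and 0.79 at E12.5, 1.98 and 2.35 at E13.5, 1.93 and 1.88 at E14.5, and 2.14 and 2.27 at E15.5. The E12.5 arrays were far below the other 6, which lay close together. Dtx1 was the 1 pathway gene called within slides, with a rise of 1.49 ± 0.20 from E12.5 to E13.5 (adjusted p = 0.0147), and also the only one called in the sum of the within-slide steps (1.79 ± 0.29, adjusted p = 0.0354). Dtx4 and Dtx3 rose by 1.01 and 0.88 over the whole span (adjusted p = 0.0312 and 0.0257). Nrarp, a Notch target that feeds back to inhibit the pathway, rose by 0.76 ± 0.16 (adjusted p = 0.0136). Fbxw7, which marks the active receptor fragment for destruction, fell by 1.85 ± 0.18 (adjusted p = 0.00084), nearly all of it in the step across slides, and its sum within slides was -0.07.

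Genes of the nuclear complex and its co-repressors gave 2 higher and 3 lower of 13. Rbpj, the DNA-binding partner of all Notch receptors, was 0.05 and 0.14 at E12.5, -0.17 and 0.02 at E13.5, 1.19 and 0.72 at E14.5, and 0.76 and 1.16 at E15.5. The 4 later arrays were all above the 4 earlier ones, as for Jag1. It rose by 0.87 ± 0.24 over the span (adjusted p = 0.0324), against -0.16 in the sum within slides. Cir1, a co-repressor of RBPJ, rose by 1.14 (adjusted p = 0.00823), and its second probe gave 0.40. The Groucho co-repressors Tle1 and Tle4 fell by 1.86 and 1.26 (adjusted p = 0.000846 and 0.0204), and the sum within slides for Tle1 was 0.04. Maml3, a co-activator, was not well above background at E15.5 and was at least 1.85-fold lower there (adjusted p = 0.0453).

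Of 7 other Hes and Hey family genes tested, 2 rose and 1 fell over the whole span. Hey2, the arterial Hey repressor whose promoter is printed above, was -2.97 and -3.39 at E12.5, -2.91 and -3.16 at E13.5, -2.0 and -2.20 at E14.5, and -2.26 and -2.27 at E15.5. It rose by 0.91 ± 0.21 (adjusted p = 0.0188), whereas its sum within slides was -0.02 and Hey1 had a difference of -0.67 that did not pass. Bhlhe40, a related repressor that also answers to hypoxia and the circadian clock, rose by 1.56 ± 0.18 (adjusted p = 0.00148), with 0.84 in the sum within slides. Hes6, which inhibits Hes1, fell by 0.87 ± 0.19 (adjusted p = 0.015). Helt fell by 1.16 ± 0.28 from E13.5 to E14.5 (adjusted p = 0.0467) and its difference over the whole span was -0.51 (adjusted p = 0.205).

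Markers of the vessel and interstitial cells in which these genes are known were followed on the same arrays. All 14 endothelial and all 11 mural markers were above background on all 8 arrays. Between E12.5 and E15.5, 0 endothelial markers rose and 4 fell of 14, with a median of -0.40. Over all genes 17.6% were called higher and 17.4% lower, 35% together. Kdr, the main VEGF receptor, fell by 2.59 ± 0.19 (adjusted p = 3e-04) and the tight junction gene Cldn5 by 1.86 ± 0.18 (adjusted p = 0.000702), whereas Pecam1 and Cdh5, which mark all endothelium, differed by -0.22 and -0.30 and did not pass (adjusted p = 0.642 and 0.294). The second, dimmer probe of Cdh5 gave 0.40. The markers' summed level, in multiples of the array's 75th percentile, ranged over 34.2 to 36.5 at E12.5, 24.7 to 25.3 at E13.5, 20.6 to 21.9 at E14.5 and 22.8 to 23.6 at E15.5. Its order over the stages resembled that of Dll4 down to E14.5, and the part of endothelial cell content in the Dll4 difference was not tested.

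Within the first step, which was made inside slides, 1 of the 14 endothelial markers was called lower, beside 1.3% of all genes. This was Cldn5, which fell by 0.97 ± 0.18 (adjusted p = 0.0365). Of the 14 differences 13 were negative, while over all genes 43.8% were positive. An unadjusted p under 0.05 (limma) was found for 6 of the 14, beside 17.1% of all genes. The median over the list was -0.51, against -0.06 over all genes and -0.84 for Dll4. Of 7 arterial markers 3 fell over the whole span, beside 17.4% of all genes called lower. These were Unc5b by 2.25, Nrp1 by 1.31 and Gja4 by 1.15 (adjusted p of 0.00193, 0.00308 and 0.00513). The second, dimmer probe of Nrp1 gave -0.70. Of the 7 differences 2 were positive and not called, the higher being Cxcr4 with 0.54, and 1.09 by its second probe. Gja5, not called, gave -0.08 by its tested probe and -0.90 by its second. The summed arterial level ranged over 15.4 to 17.2 at E12.5 and 7.71 to 9.26 at E15.5. The part of arterial cell content in the Dll4 and Hey1 values was likewise not tested.

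Of 11 mural and smooth muscle markers, 7 were called higher and 0 lower over the span, with a median of 1.14. Beside these counts stand 17.6% of all genes called higher and 17.4% lower. The list did not rise as a whole, since 3 of the 11 differences were negative, the lowest at -1.18, and not called. The smooth muscle gene Cnn1 rose by 3.54, Abcc9 by 3.20, Myh11 by 2.16 and Acta2 by 2.04. Cnn1, Acta2 and Rgs5 also rose within slides in the first step, by 1.51, 1.39 and 1.29, although 1 of the other 2 Acta2 probes gave 0.20 in that step. Over the same arrays Notch3 and Heyl, which mural cells are known for, differed by 0.02 and 0.45 and did not pass. The summed level of the mural list was 30.1 to 79.2 at E12.5, 54.1 to 93.2 at E13.5, 68.6 to 82.6 at E14.5 and 86.6 to 92.8 at E15.5. The highest single array was thus 1 of E13.5, and the stages overlapped except for E12.5 and E14.5 against E15.5. Bright probes weigh most in such a sum, so its overlap does not describe each marker. Tagln, a bright marker that was not called, gave -0.09 over the span by its tested probe and 2.95 by its second. The list's part in the values of Jag1, Notch3 and Heyl was not tested.

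Of 10 interstitial progenitor markers, 1 rose over the span (Pdgfra, by 0.85) and 2 fell (Ptch1 by 1.79 and Vcam1 by 1.04). Over all genes the shares called higher and lower were 17.6% and 17.4%. The second, dimmer probe of Vcam1 gave -0.08 and that of Pdgfra 0.45. All 7 fetal Leydig markers rose over the span, and all 7 also rose in the first step, in which slides were shared. Over all genes 17.6% were called higher over the span and 2.68% in the first step. In that step the target genes Hes1, Hey1 and Heyl differed by -0.02, -0.66 and 0.41 and none passed.

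**Figure D4:**
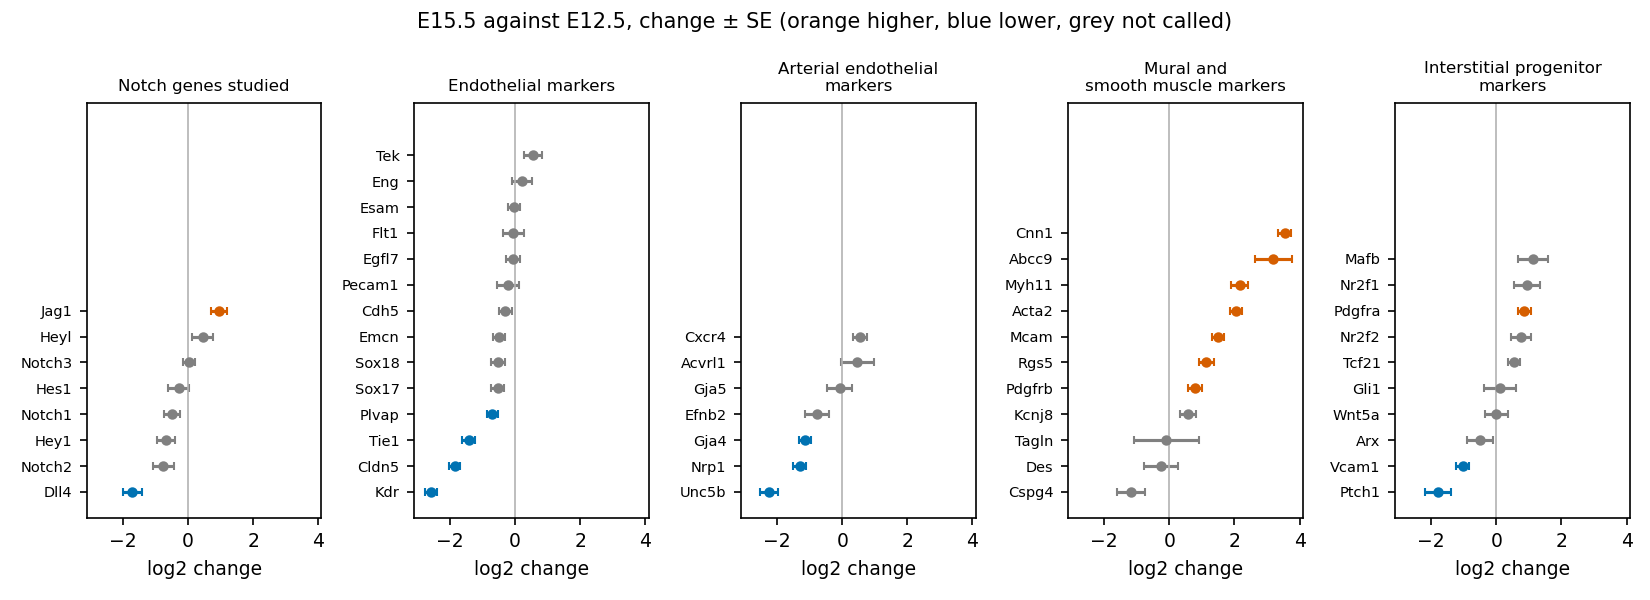
Difference in log2 level between E15.5 and E12.5 for the genes of the endothelial, arterial, mural and interstitial progenitor marker lists beside the 8 Notch genes, with bars for the SE and colour for called genes (orange higher, blue lower, grey not called). Called endothelial and arterial markers lie below 0 like Dll4, and called mural markers lie above 0 like Jag1, whereas Notch3 lies near 0.

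The 8 genes did not share 1 pattern over the arrays. Jag1 and Dll4 ran in opposite directions over the 8 arrays (Pearson's r of -0.94), Notch1 and Notch3 had an r of 0.77, Notch2 and Dll4 one of 0.71, and Hes1 and Heyl one of -0.82. These are descriptions over arrays that share stages and slides. Among the 11816 named genes (11817 for Notch2) above background on every array, the pattern most like Dll4 was that of Lypd6 (r = 0.992) and Tk1 (0.991), and that most like Jag1 was that of Stk3 (0.995) and Ints13 (0.993). The nearest to Notch1 were Astn1 (0.975) and Lpp (0.974), to Notch2 Map4k4 (0.973) and Topbp1 (0.968), and to Notch3 Stab1 (0.942) and Alx1 (0.937). The nearest to Hes1 were Ndc1 (0.978) and Fem1al (0.974), to Hey1 Isl2 (0.988) and Chordc1 (0.970), and to Heyl Zfp82 (0.974) and Chmp7 (0.974).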

How the data were processed

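Cy3-labelled cRNA from whole gonads was read on 8 one-colour arrays. The deposited scanner files hold spot intensity, from which Agilent Feature Extraction had subtracted background, per the file headers, without scaling between arrays. Its version is 9.5 in the submitters' processing notes, and the headers give 9.1.3.1 (E12.5, E13.5) and 9.5.3.1 (E14.5, E15.5). The authors also deposited a table with 1 linear ratio per probe and stage. Its centring, its scaling and how arrays were combined are unknown, so it was used for description only.

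From the intensity, log2 of the processed signal minus the log2 75th percentile over the 41174 probes that are not controls was taken, after averaging spots of a probe. A probe was kept where some stage had it well above background on both of its arrays (28188 probes). RefSeq accessions gave 1 symbol to 55.7% of probes, and a probe without a symbol stood under the array's own name for its target. For each symbol or such name 1 probe, the brightest on average, was tested. All 8 arrays entered 1 fit with a mean per stage in limma 3.58.1 (R 4.3.3), with moderated variances, 4 residual degrees of freedom and Benjamini-Hochberg adjustment over 21986 genes, called at 0.05. The number of arrays limits the precision, and p-values measure the spread between these duplicates only. The fit was tested on simulated data, where it recovered the sizes put in closely but called few of the genes changed by 2-fold. Far fewer genes were changed there than were called over the span here. The share called depends on that, so it does not carry over to these data. For a probe not well above background, a bound takes on each array the higher of the lowest level above background and the probe's own level. Median spot signals replaced mean signals, which were not among the columns used, in the alternative background correction (normexp, offset 50), and 3 extreme background spots were set to the array's median.

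Each of the 8 genes is reported. Other genes were named by a fixed rule, up to 4 called genes per list and comparison with the largest change, the most abundant or called markers, and the 2 genes most like each of the 8. Notch4, Jag2 and Dll1, not called, were added after their values were seen. The 8 genes, the lists and the tests were chosen with earlier results of these data known. Alternatives were other scalings, background correction, filters, probe rules, slide as a block, a replicate block, and leaving out each array.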

Additional observations from a re-analysis of the deposited data

How the results depend on the processing

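Of 731 values recomputed under 20 alternatives, 38 belonged to the calls of Dll4 and Jag1: all 38 kept their sign and 7 lost the call. Many alternatives, such as the blocks or leaving out an array of another stage, change the spread and not the estimate, so the sign was fixed there. Values from the authors' table have no adjusted p and could not lose a call. Of 693 values of uncalled results, 36 had the other sign and 6 became calls. Over the whole span 2 of the 8 genes were called, 1 without the filter on dim probes, and 1 to 2 when an array was left out. After quantile scaling 3 were called, and 3 after normexp, with Notch2 as the added gene in both. The sum of the steps within slides (chosen after the data were seen), which leaves out the middle day, called 0. Jag1 was called in 12 of 18 settings (0.14 to 1.16, adjusted p 0.00562 to 0.93) and Dll4 in 17 of 18 (-1.94 to -0.83, adjusted p 0.00183 to 0.437). The values 0.14 and -0.83, with the highest adjusted p, are those of the sum. From E13.5 to E14.5, 0 were called, but 1 after quantile scaling (Jag1, adjusted p = 0.0497), 2 after normexp (Jag1 0.0413 and Dll4 0.0468), and 0 to 1 when an array was left out (Jag1 without the second E14.5 array, 0.0486). The cause was not tested.

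With the array number as a replicate block, 0, 0, 0 and 2 of the 8 genes were called in the 3 steps and the whole span. Same-numbered arrays deviated together at E12.5 and E13.5, which share slides (r = 0.65), and oppositely at E14.5 and E15.5 (r = -0.59), so the numbers do not pair samples across stages. The replicate block changed the calls over all genes from 874 to 544, 2745 to 1611, 144 to 89 and 7703 to 7103, and those of the step difference from 514 to 228. Over all genes, calls fell to 139 (first step), 220 (middle), 0 (last) and 3492 (span, or 477 for the sum of the steps within slides) in the settings with fewest, and reached 981, 4030, 231 and 9223 in those with most. Among called genes the share higher was 50.3% over the span and 51.6% in the middle step, but 36.9% and 32.8% after normexp, which moved the median of all genes to -0.17 and -0.16. A fixed slide block could not be fitted across slides. Notch2 has no value where probes had to be above background on all arrays, and signal near background limits its values.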
